A study of Mus musculus with 12 samples.

Results

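Open chromatin at 9 genes of the complement system was compared between SgshKO and wild-type (WT) mouse forebrain. The genes encode the chains of C1q (C1qa, C1qb, C1qc), the central components C3 and C4b, the anaphylatoxin receptors C3ar1 and C5ar1, and both chains of complement receptor 3 (Itgam, Itgb2). Every ATAC-seq peak whose nearest gene, as the authors annotated it, was one of these was taken, which gave 76 of 281974 peaks. Of the 76, 65 were among 91770 microglia peaks, 8 among 107627 peaks of NeuN+ nuclei and 3 among 82577 peaks of Olig2+ nuclei. Assignment to the nearest start site does not show which gene a peak regulates.

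ATAC-seq reads out accessible DNA by where the Tn5 transposase inserts adapters. All mice were C57BL/6 and 4 months old. The groups were WT and SgshKO, a knockout of Sgsh, the lysosomal sulfamidase that is lost in Sanfilippo syndrome type A; the labels do not describe the allele, name no other transgene or agent, and do not give sex. Microglia were sorted alive as CD11b+, CX3CR1+ cells with low CD45, so the product of Itgam was itself a sorting marker. Neuronal (NeuN+, without PU.1 and OLIG2) and oligodendrocyte-lineage (OLIG2+, without PU.1 and NeuN) nuclei were sorted after light formaldehyde fixation. Each of the 6 groups had 2 libraries, and nothing in the labels says that they came from separate animals, so p-values measure only the spread between these libraries, which may be technical. In such bulk libraries, a change in the share of cells with an open site cannot be told apart from a change of accessibility per cell.

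Complement is a proteolytic cascade of innate immunity. C1q recognises antibodies, apoptotic cells and other surfaces and starts the classical pathway, in which C4 and then C3 are cleaved and deposited. C3a and C5a, released on cleavage, act through C3aR and C5aR1, and cells carrying complement receptor 3 (CD11b with CD18) bind and engulf C3-tagged targets. In the brain microglia are the main source of C1q, and C1q, C3 and complement receptor 3 take part in synapse removal during development and in disease.

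Promoter sequences were found in the RefSeq-derived promoter table (mouse build GRCm38.p6) for 6 of the 9 genes, C1qb, C1qc, C3, C3ar1, C5ar1 and Itgam. The 250 bases before the start of 4 of them are shown 5′ to 3′ because the microglia peaks described next cover part or all of each: C3 is the promoter that gained accessibility, C1qb and C1qc belong to the most accessible promoters of the table, and C3ar1 is a receptor promoter. C3 lies at chr17:57228137-57228386, C1qb at chr4:136886201-136886450, C1qc at chr4:136892915-136893164 and C3ar1 at chr6:122856158-122856407, all on the minus strand. Capitals mark matches, on either strand, to the motifs searched.
C3: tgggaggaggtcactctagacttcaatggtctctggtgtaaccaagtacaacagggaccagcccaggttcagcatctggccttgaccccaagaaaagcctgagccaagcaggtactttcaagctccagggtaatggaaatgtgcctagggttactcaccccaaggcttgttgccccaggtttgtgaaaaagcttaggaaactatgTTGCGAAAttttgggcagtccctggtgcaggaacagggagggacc
C1qb: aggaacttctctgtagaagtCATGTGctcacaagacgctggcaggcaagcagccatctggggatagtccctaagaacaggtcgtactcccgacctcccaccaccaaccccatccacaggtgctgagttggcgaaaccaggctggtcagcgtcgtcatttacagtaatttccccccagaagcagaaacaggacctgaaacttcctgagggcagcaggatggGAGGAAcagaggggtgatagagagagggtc
C1qc: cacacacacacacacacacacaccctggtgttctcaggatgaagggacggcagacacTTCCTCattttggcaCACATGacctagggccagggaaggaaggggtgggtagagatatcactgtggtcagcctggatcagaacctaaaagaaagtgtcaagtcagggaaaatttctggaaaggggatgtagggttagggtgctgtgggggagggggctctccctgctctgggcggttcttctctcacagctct
C3ar1: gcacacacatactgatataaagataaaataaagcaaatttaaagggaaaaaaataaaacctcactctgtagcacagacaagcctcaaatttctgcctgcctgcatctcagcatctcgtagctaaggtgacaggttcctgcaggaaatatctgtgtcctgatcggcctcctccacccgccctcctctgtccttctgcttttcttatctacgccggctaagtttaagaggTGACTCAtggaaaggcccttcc

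The 5 motifs searched were GAGGAA (a core of PU.1, the myeloid lineage factor), CACGTG and CATGTG (bound by the MITF and TFE family), TGANTCA (AP-1) and TTGCNNAA (C/EBP). C3 holds a C/EBP match, TTGCGAAA, that begins 45 bases before the start. C1qb holds GAGGAA at 30 and CATGTG at 230 bases before the start, and C1qc holds both on the other strand, as TTCCTC at 193 and CACATG at 178 bases. In C3ar1 an AP-1 match, TGACTCA, begins 22 bases before the start. Itgam, whose sequence is not shown, holds GAGGAA at 84 and TTCCTC at 15 bases, and C5ar1 holds none of the 5 motifs in this window. Over 32851 mouse promoters of the same length, 23.3% held GAGGAA, 12.3% CATGTG, 9.56% the C/EBP motif, 6.75% the AP-1 motif and 6.02% CACGTG, so such matches are frequent and only describe these windows. No match overlapped another.

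Total tags ran from 10771659 to 11804222 in microglia libraries, from 14326703 to 17706971 in NeuN+ and from 15044194 to 19555924 in Olig2+ libraries. The share of tags in peaks was 55.8% and 48.7% in the WT and 67.4% and 53.7% in the SgshKO microglia libraries, where it varied more than in either nuclei sort. The peak at the start of Sgsh itself was open in both genotypes of each sort, and at an unknown allele it does not check the labels: it gave 184.08 and 161.81 tags in WT and 257.13 and 259.94 in SgshKO microglia, 34.55 and 22.59 against 9.07 and 13.33 in NeuN+ nuclei, where it was called lower (-1.27 ± 0.28, adjusted p = 0.00256), and 65.87 and 74.15 against 60.87 and 69.13 in Olig2+ nuclei. In microglia all 9 microglial marker genes had a peak within 1000 bp of their start (1950 to 2290 tags in all in WT, 1820 to 2360 in SgshKO). Of 8 markers of blood monocytes and neutrophils, 7 had none there, Ccr2 and Ly6c2 among them, and the list summed to 9.28 to 22.5 tags. All 7 neuronal markers had such a peak in NeuN+ nuclei and all 7 oligodendrocyte markers in Olig2+ nuclei. Values below are the authors' normalized tags, that is reads per peak scaled to 10000000 tags per library.

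In wild-type microglia the C1q promoters were among the most accessible sites measured. Per 100 bp of peak, WT accessibility was 222 ± 6.21 tags (SD, n = 2) at C1qb, 205 ± 12.8 at C1qc and 155 ± 17.1 at C1qa. C3ar1 followed with 87.5 ± 18.2, Itgb2 with 78.7 ± 0.072, Itgam with 45.0 ± 2.32 and C5ar1 with 39.9 ± 19.8 tags per 100 bp. The C3 promoter was lowest, at 2.26 ± 1.26 tags per 100 bp, and no C4b promoter peak was in the microglia table. Neighbours in this order that lay within their spread were C1qb and C1qc, C3ar1 and Itgb2, and Itgam and C5ar1. By the tags of the whole peak, C1qb stood at percentile 100 of the WT levels of all microglia peaks, C1qc at 99.6, C1qa at 98.6 and C3 at 1.3.

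**Figure D1:**
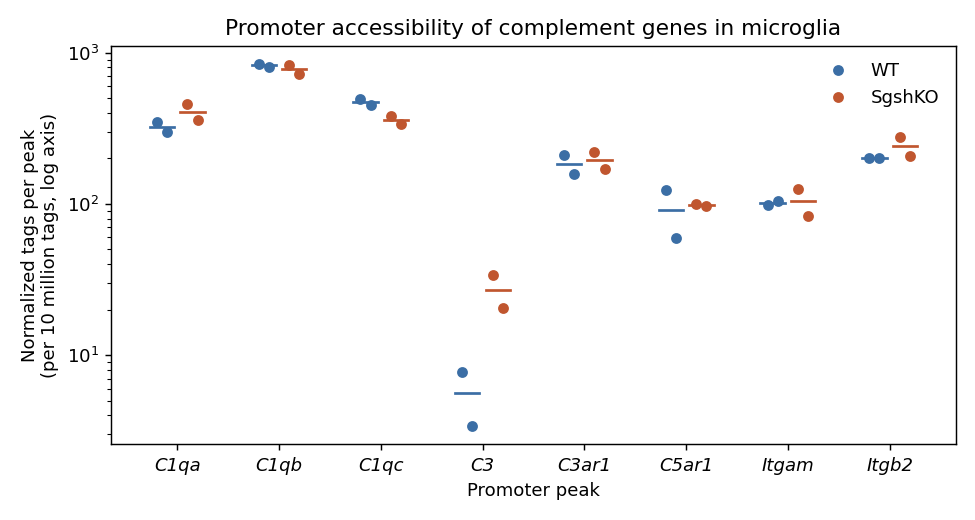
Normalized tags (log axis) in the promoter peak of each complement gene in microglia, 1 point per library, WT and SgshKO side by side. The C3 promoter is the lowest, and it is the 1 gene whose SgshKO libraries (33.76 and 20.42 tags) sit far above the WT libraries (7.78 and 3.39 tags).

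SgshKO against WT was tested over the whole microglia table with limma on log2(tags + 1) and Benjamini-Hochberg adjustment, and a peak was called at an adjusted p under 0.05. Of the 65 complement peaks, 9 were called: the C3 promoter rose, and 8 peaks of the C1q genes fell. That is 13.8% of the complement peaks, against 7.37% of all microglia peaks called in either direction, 5.05% higher and 2.33% lower. At an unadjusted p under 0.05 there were 20 (22% of all peaks). In 24 complement peaks both SgshKO libraries lay below both WT libraries (28.1% of all peaks) and in 14 both lay above (23% of all peaks). The median log2 change was -0.16 over the complement peaks and -0.08 over all peaks. Over the 40 peaks of the 6 other genes it was 0.07, with 1 called.

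**Figure D2:**
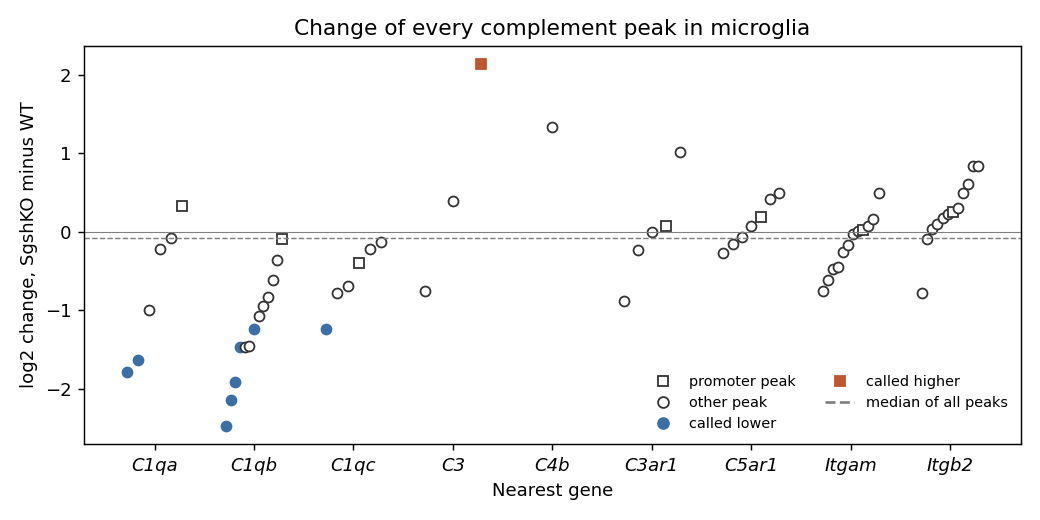
Log2 change (SgshKO minus WT) of every complement peak in microglia, grouped by gene, with called peaks marked. The C1q genes hold the 8 called decreases, and the C3 promoter, at 2.14, is the 1 called increase.

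The C1q genes lie side by side on mouse chromosome 4, and their peaks spanned 38.3 kb. None of their 3 promoter peaks passed the test, while 8 of 22 smaller peaks between, inside and beside the genes fell. Summed over the promoter peaks, the libraries held 1680 and 1560 tags in WT and 1670 and 1410 in SgshKO. Summed over the 22 other C1q peaks, they held 851 and 834 tags in WT and 494 and 426 in SgshKO. The other 14 did not pass the test, and none of the 22 rose. Both SgshKO libraries lay below both WT libraries in 17 of the 22. Among all microglia peaks not at a promoter, 2.61% fell and 30% had both SgshKO libraries below both WT. All 22 had a log2 change below 0, with a median of -1.03. It was below 0 in 21 with quantile normalization or DESeq2, in 19 when SgshKO replicate 1 was left out and in 20 when replicate 2 was. None of the 8 was called without either WT library, and DESeq2 lost the 3 calls at the sites upstream of C1qa (adjusted p = 0.07) and C1qb (adjusted p = 0.0546) and at the largest site downstream of C1qb (adjusted p = 0.17), and gave no adjusted p for the 3 low peaks downstream of C1qb. Peaks within one cluster share neighbouring DNA and the same 4 libraries, so they are not replicates of a change.

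All 10 intergenic C1q peaks were lower in both SgshKO libraries, against 26.7% of all intergenic microglia peaks, with a median log2 change of -1.35, and 6 fell, against 2.42%. They summed to 446 and 403 tags in WT and to 197 and 179 in SgshKO. The 8 intronic peaks had a median of -0.48 and none was called, against 6.06% of all intronic microglia peaks. The remaining peaks lie at the ends of genes or in exons.

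The C1q peak with the most tags in WT after the promoters lay between C1qc and C1qa, at chr4:136894004-136894221, 1198 bp upstream of the C1qc start. It held 113.21 and 91.49 tags in WT and 37.23 and 48.27 in SgshKO libraries. Its log2 change was -1.24 ± 0.33 (SE, adjusted p = 0.0155). A second site between genes, at chr4:136887819-136888059 and 1762 bp upstream of C1qb, held 69.14 and 61.84 tags in WT against 29.44 and 25.07 in SgshKO, a change of -1.24 ± 0.36 (adjusted p = 0.0288). Both groups were clearly apart at these sites, and each SgshKO library was under every WT library.

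Upstream of C1qa, by 15780 bp, the peak at chr4:136914469-136914779 fell from 28.52 and 25.41 tags to 7.79 and 6.50 (log2 change -1.78 ± 0.46, adjusted p = 0.0131). Inside C1qa, in its last exon (3 of 3) at chr4:136896381-136896596, values were 31.98 and 55.91 tags in WT and 16.45 and 10.21 in SgshKO. That peak fell by 1.63 ± 0.43 on the log2 scale (adjusted p = 0.0145). The WT libraries differed from each other more here than at the sites between the genes, without reaching the SgshKO values.

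Downstream of C1qb, peaks at chr4:136878125-136878657 (-0.95, adjusted p = 0.181) and chr4:136878689-136878891 (-1.46, adjusted p = 0.0676) did not pass. To either side of these, 4 other peaks downstream of C1qb fell. At its transcription end (chr4:136879447-136879716) WT held 13.83 and 10.17 tags and SgshKO 0.87 and 1.86, from 1 and 2 reads, and the log2 change was -2.48 ± 0.55 (adjusted p = 0.0036). Beyond it, the peak at chr4:136876707-136876908 held 9.51 and 11.86 tags in WT against 2.60 and 0.93 (-2.14 ± 0.56, adjusted p = 0.0129). Its neighbour at chr4:136876464-136876683 held 6.91 and 8.47 against 1.73 and 0.93 (-1.91 ± 0.57, adjusted p = 0.0301), and its call was lost with quantile normalization (-1.40, adjusted p = 0.0884). These low peaks rest on few reads in SgshKO, and adding 1 tag before the logarithm understates their folds. The 4th, at chr4:136877072-136877281, was larger, with 46.67 and 38.12 tags in WT and 27.70 and 7.43 in SgshKO (-1.47 ± 0.46, adjusted p = 0.0405). Its SgshKO libraries disagreed, and without SgshKO replicate 2 the change was -0.59 (adjusted p = 0.292).

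**Figure D3:**
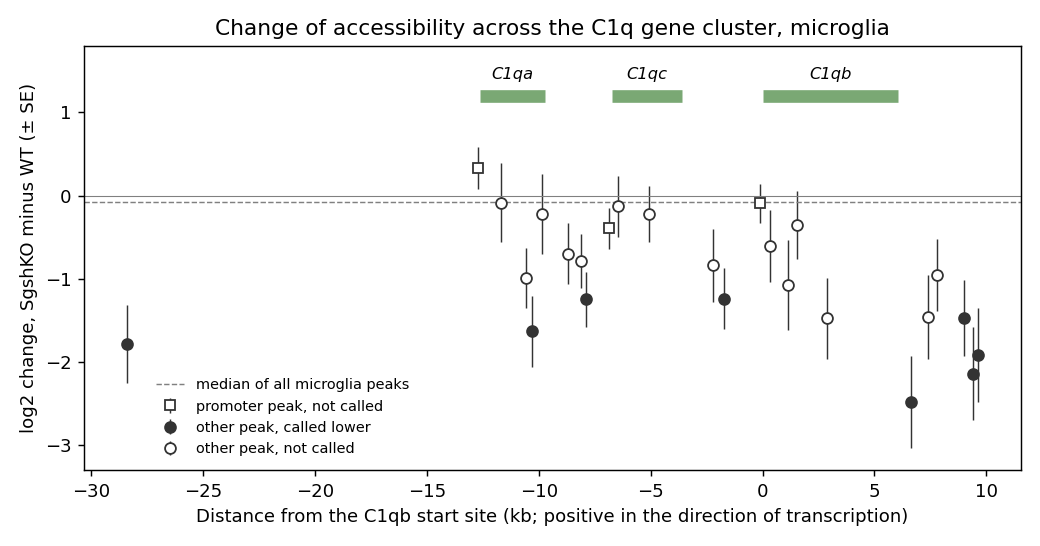
Log2 change (SgshKO minus WT, bars are standard errors) of each C1q peak in microglia by its distance in kb from the C1qb start, with the gene bodies drawn as bars. The promoter peaks lie from -0.39 to 0.33. Of the other peaks, the 8 called lie from -1.24 to -2.48 and the 14 not called from -0.09 to -1.47, which overlaps the promoter range.

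None of the 3 C1q promoters passed the test. C1qa held 346.55 and 296.50 tags in WT and 454.51 and 359.28 in SgshKO (0.33 ± 0.26, adjusted p = 0.475; -0.18 with quantile normalization). C1qb held 840.88 and 808.19 against 830.25 and 718.55 (-0.09 ± 0.23, adjusted p = 0.86), and the groups overlapped. At C1qc both SgshKO libraries, 382.66 and 337.00, lay below both WT libraries, 493.46 and 451.53 (-0.39 ± 0.25, adjusted p = 0.368). Scaling decided this: relative to tags in peaks C1qc was called lower (-0.60, adjusted p = 0.0212), and with quantile normalization C1qc (-0.95, adjusted p = 0.00135) and C1qb (-0.76, adjusted p = 0.00261) both were. Scaling to tags in peaks moved the median of all microglia peaks from -0.08 to -0.28, and the median of the 22 other C1q peaks lay 0.95 below all peaks before it and 0.94 below after. The difference between C1q promoters and the other C1q peaks was not itself tested.

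C3, the component on which all complement pathways meet, gained a promoter signal in SgshKO microglia. The peak at chr17:57228014-57228260 is centred 1 bp from the start and covers 124 of the 250 promoter bases printed above. It held 7.78 and 3.39 tags in WT and 33.76 and 20.42 in SgshKO, from 9, 4, 39 and 22 reads. The peak set is named as merged over WT and SgshKO. A peak this low in WT may have entered it through SgshKO alone, which would favour a rise. Both SgshKO libraries were above both WT libraries, and the mean was 4.85-fold higher (log2 change 2.14 ± 0.50, adjusted p = 0.00511). Even so, at 11.0 ± 3.82 tags per 100 bp in SgshKO, it stayed less accessible than the WT promoters of the receptors. Under the alternatives the call was lost only without WT replicate 2, where the change was 1.64 (adjusted p = 0.469). The C3 promoter was the 1 called of 8 complement promoter peaks in microglia, against 12.7% of all microglia promoter peaks. Of those 16248, 1899 were called higher, 40.8% had both SgshKO libraries above both WT, and the median log2 change was 0.164. The other C3 peaks did not pass. In intron 11, 4554 bp downstream of the start, WT held 18.15 and 15.25 tags and SgshKO 15.58 and 5.57. Upstream by 1809 bp, WT held 30.25 and 22.87 and SgshKO 38.09 and 31.56, and both SgshKO libraries were higher. Markers of border macrophages were also higher in SgshKO microglia libraries: 3 of 6 (Mrc1, Ms4a7 and Pf4) had a peak near the start, summing to 52.7 and 40.7 tags in WT and 87.4 and 69.6 in SgshKO, while Cd163, F13a1 and Lyve1 had none. The oligodendrocyte list (219 and 206 tags in WT, 275 and 245 in SgshKO) and the neuronal list (40.6 and 48.3 against 58.0 and 59.4) were higher as well. The astrocyte list (125 and 86.4 against 89.2 and 75.2) and the endothelial list (283 and 236 against 253 and 197) overlapped between genotypes. Per 1000 tags in peaks, only border macrophage markers stayed higher (0.00945 and 0.00835 in WT, 0.013 and 0.013 in SgshKO). The oligodendrocyte and neuronal lists then overlapped between genotypes. On that scale 3 lists were lower in SgshKO: astrocyte (0.0225 and 0.0177 against 0.0132 and 0.014), endothelial (0.0508 and 0.0484 against 0.0375 and 0.0367) and microglial (0.411 and 0.4 against 0.35 and 0.34). The part of these markers in the C3 result was not tested.

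C4b, the mouse C4 gene cleaved after C1q activation, had a promoter peak in Olig2+ nuclei and none in microglia. In microglia no peak lay in its gene body, and its single peak, 17791 bp upstream, held 4.32 and 3.39 tags in WT and 10.39 and 12.07 in SgshKO. Both SgshKO libraries were higher there, but the change of 1.34 ± 0.52 did not pass the test (adjusted p = 0.114). It passed with quantile normalization (1.73, adjusted p = 0.0236) and with edgeR (1.55, adjusted p = 0.0371), and without either SgshKO library.

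In Olig2+ nuclei the C4b promoter peak, at chr17:34743833-34744050, rose in SgshKO. It held 15.56 and 11.25 tags in WT and 59.64 and 34.56 in SgshKO, from 30, 22, 97 and 52 reads. The log2 change was 1.71 ± 0.25 (adjusted p = 1.38e-05), and both SgshKO libraries lay well above both WT libraries. A second peak, in intron 2 of 40 at chr17:34743002-34743260, held 5.71 and 4.09 tags in WT against 11.07 and 9.97 in SgshKO (0.98 ± 0.35, adjusted p = 0.0465). The promoter stayed called under all alternatives run, between 1.32 and 2.09, while the intron peak lost its call with a pseudocount of 0.5 (1.04, adjusted p = 0.0506) and without WT replicate 1 (1.18, adjusted p = 0.103), WT replicate 2 (0.78, adjusted p = 0.261) or SgshKO replicate 1 (0.91, adjusted p = 0.0945). Of 6 astrocyte markers 1, Slc1a3, had a peak near its start in these nuclei, with 9.34 and 8.18 tags in WT and 6.15 and 5.98 in SgshKO, and Gfap, Aqp4 and Aldh1l1 had none. The endothelial list had 1 of 5, with 3.63 and 2.56 tags in WT and 8.61 and 10.6 in SgshKO. The part of the endothelial signal in the C4b result was not tested.

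**Figure D4:**
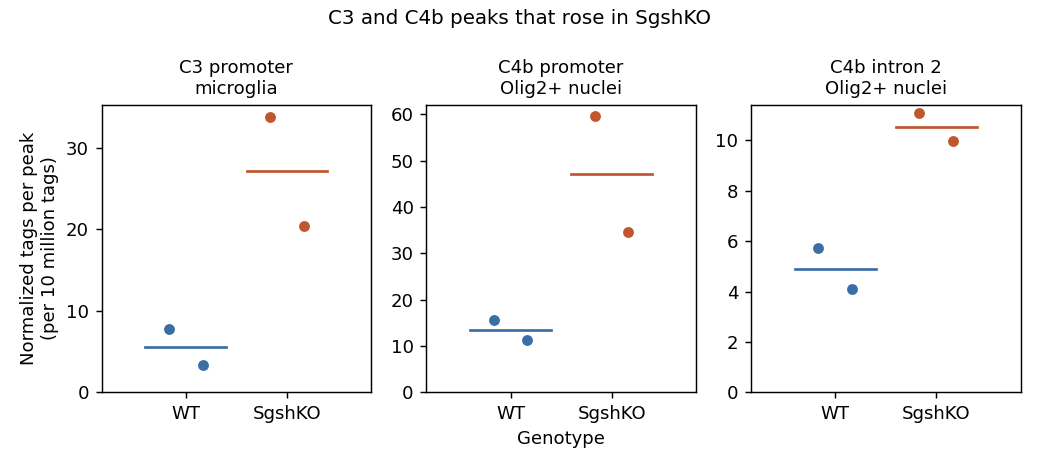
Normalized tags per library at the C3 promoter in microglia and at the C4b promoter and intron peaks in Olig2+ nuclei, WT and SgshKO side by side, on linear axes from 0. At each of the 3 peaks both SgshKO libraries sit above both WT libraries, from 33.76 and 20.42 over 7.78 and 3.39 tags at C3 to 59.64 and 34.56 over 15.56 and 11.25 at the C4b promoter.

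The anaphylatoxin receptors did not pass the test at any of their 12 microglia peaks, against 7.37% of all microglia peaks called. The median log2 change of the 12 was 0.03, and 2 had an unadjusted p under 0.05, against 22% of all microglia peaks. C3ar1, the receptor of C3a, had a promoter (chr6:122856044-122856254) with 211.73 and 157.57 tags in WT and 219.03 and 169.89 in SgshKO (0.08 ± 0.28, adjusted p = 0.906; -0.13 with scaling to tags in peaks and -0.25 with quantile normalization). The groups overlapped there and at both peaks in its intron 1. Upstream of C3ar1 by 6918 bp, the peak at chr6:122862970-122863181 held 44.07 and 38.12 tags in WT and 82.25 and 85.41 in SgshKO. Its groups were far apart, and the change of 1.01 ± 0.34 narrowly missed the threshold (adjusted p = 0.0572); it was called under 9 of 13 alternatives. A further peak named for C3ar1 lies in the last exon of its neighbour Foxj2, 11009 bp from the C3ar1 start, with 41.48 and 35.58 tags in WT and 22.51 and 18.57 in SgshKO (-0.88 ± 0.40, adjusted p = 0.186).

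C5ar1 encodes the main signalling receptor of C5a. Its promoter (chr7:16259199-16259427) held 123.58 and 59.30 tags in WT and 99.56 and 96.55 in SgshKO (0.19 ± 0.33, adjusted p = 0.786; -0.01 with scaling to tags in peaks). The WT libraries differed by more than the group means. In intron 1 a larger peak, at chr7:16254339-16254550, held 261.86 and 179.60 tags in WT and 313.40 and 266.44 in SgshKO (0.41 ± 0.27, adjusted p = 0.391), and both SgshKO libraries were the higher. The other 5 peaks ranged from -0.27 to 0.49 in log2 change.

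Among the 24 peaks of the complement receptor 3 chains none was called, against 7.37% of all microglia peaks, and the median was 0.06. An unadjusted p under 0.05 was seen at 3, against 22% of all microglia peaks. Itgam, which encodes CD11b, held 97.66 and 105.05 tags at its promoter (chr7:128062562-128062786) in WT and 125.53 and 83.55 in SgshKO (0.02 ± 0.31, adjusted p = 0.985; -0.19 with scaling to tags in peaks and -0.14 with quantile normalization). Its WT libraries sat between the SgshKO libraries. The smallest p of Itgam was at a peak 5417 bp upstream, with 99.38 and 97.42 tags in WT and 72.72 and 56.63 in SgshKO (-0.61 ± 0.32, adjusted p = 0.259), called with scaling to tags in peaks (-0.81, adjusted p = 0.0277). The most accessible Itgam peak, 13652 bp upstream, held 245.44 and 189.76 tags in WT and 251.07 and 177.32 in SgshKO, and its groups overlapped.

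Itgb2, which encodes CD18, had its highest peak in intron 8 (chr10:77551005-77551315), at percentile 99.8 of WT microglia peaks. It held 656.80 and 567.59 tags in WT and 879.59 and 646.14 in SgshKO (0.30 ± 0.24, adjusted p = 0.494), with overlapping groups. At the promoter (chr10:77530172-77530427) WT held 201.36 and 201.62 and SgshKO 275.31 and 208.88 (0.25 ± 0.27, adjusted p = 0.638; -0.12 with quantile normalization). An intron 3 peak at chr10:77544974-77545181 held 167.66 and 132.16 tags in WT and 257.13 and 202.38 in SgshKO (0.61 ± 0.28, adjusted p = 0.186). It was called with median-of-ratios scaling (0.67, adjusted p = 0.0308) and with edgeR (0.66, adjusted p = 0.0272). Of the 12 Itgb2 peaks 10 had a positive log2 change, but 7 with scaling to tags in peaks or quantile normalization. Of the 12 Itgam peaks 5 had one. Below the median of all microglia peaks, -0.08, lay 2 of the Itgb2 and 6 of the Itgam peaks. The Itgam counts leave out 4 peaks in its gene body that are named for Itgax, with log2 changes from -2.68 to -0.80.

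NeuN+ nuclei had peaks named for 5 of the 9 genes and none for C3, C3ar1, C5ar1 or Itgam. Of the 8 peaks 2 fell and none rose, against 29.8% of all NeuN+ peaks called, 10.2% higher and 19.6% lower. Both SgshKO libraries lay below both WT libraries in 2 (44.4% of all peaks) and above in 2 (24.1%). The share called is near that of the whole table. Both were C1q peaks at places where microglia peaks also fell. The peak upstream of C1qc, at chr4:136894003-136894241, held 20.39 and 22.03 tags in WT and 9.07 and 11.43 in SgshKO (-0.99 ± 0.27, adjusted p = 0.0102). Downstream of C1qb, at chr4:136877113-136877317, WT held 13.59 and 16.38 and SgshKO 5.58 and 8.89 (-0.98 ± 0.31, adjusted p = 0.0255). The 7 neuronal markers held 718 and 642 tags near their starts in WT and 357 and 385 in SgshKO NeuN+ libraries. Lists of other cell types were lower as well: 3 of 7 oligodendrocyte markers had such a peak, with 119 and 99.4 tags in WT and 55.8 and 54.6 in SgshKO, and 1 of 6 astrocyte markers, with 137 and 127 against 86.6 and 97.8. The part of these markers in the C1q result was not tested. The C1qc call was lost with scaling to tags in peaks (-0.71, adjusted p = 0.0551) and the C1qb call with each of the 3 alternative scalings, with edgeR and with DESeq2; neither held without any 1 library. Leaving out either SgshKO library left no peak of the whole NeuN+ table called.

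The remaining NeuN+ peaks did not pass. A peak 9141 bp upstream of C1qa held 6.23 and 7.91 tags in WT and 11.87 and 13.33 in SgshKO (0.76 ± 0.31, adjusted p = 0.0707). Both SgshKO libraries were higher, opposite to the called C1q peaks of these nuclei, and it passed with scaling to tags in peaks (1.03, adjusted p = 0.0182). The Itgb2 intron 3 peak was level, at 27.19 and 31.06 tags in WT and 25.83 and 31.11 in SgshKO. The peak named for C4b lies in intron 18 of Tnxb, 30685 bp from the C4b start, with 11.90 and 7.91 tags against 8.38 and 5.08.

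Beside the C4b peaks, Olig2+ nuclei had 1 complement peak, 25890 bp upstream of C1qa at chr4:136924618-136924851. It fell from 12.45 and 15.85 tags in WT to 4.30 and 4.65 in SgshKO (-1.46 ± 0.34, adjusted p = 0.00277), which did not hold when WT replicate 2 was left out (-1.30, adjusted p = 0.107). Neither this peak nor the C4b intron peak was tested when the lowest 25% of peaks were left out, since both are among them, and DESeq2 gave neither an adjusted p. All 3 complement peaks of these nuclei were thus called, against 19.8% of all Olig2+ peaks, 8.17% higher and 11.7% lower. Both C4b peaks had both SgshKO libraries above both WT libraries (26.4% of all peaks), and the C1qa peak had both below (34.9%).

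Whether a change differed between sorts could be tested for 3 peaks that microglia and NeuN+ nuclei shared by a reciprocal overlap of 50%, in a limma model of the 8 libraries. For Itgb2 in intron 3 the change in microglia exceeded that in NeuN+ nuclei by 0.65 ± 0.30 (adjusted p = 0.117). For the peaks downstream of C1qb (-0.49 ± 0.63, adjusted p = 0.61) and upstream of C1qc (-0.26 ± 0.39, adjusted p = 0.68) the standard errors exceed the differences. None of the 3 passed, against 29.3% of all shared peaks, and 1 had an unadjusted p under 0.05, Itgb2. Scaling to the tags in the shared peaks alone gave a C1qc difference of -1.10 (adjusted p = 0.0411) and turned that of Itgb2 to -0.24. Scaling to the tags in all peaks of each table, tried after seeing the data, gave -0.74 (adjusted p = 0.187) and 0.15 (adjusted p = 0.733), and none of the 3 passed. No complement peak of Olig2+ nuclei had a partner in another sort.

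The rest of the complement system was followed in a list of 41 other genes, proteases, regulators, lectin pathway and terminal components among them. In microglia they had 63 peaks, of which 1 rose and 1 fell. That is 3.17% of them, against 7.37% of all microglia peaks. The peak that rose lies 7424 bp upstream of Fcnb, a ficolin of the lectin pathway, with 106.30 and 77.94 tags in WT and 283.96 and 146.68 in SgshKO (1.16 ± 0.31, adjusted p = 0.0163), and the change was 0.68 (adjusted p = 0.0692) when SgshKO replicate 1 was left out. The peak that fell is named for Itgax (CD11c, the alpha chain of complement receptor 4) but lies in intron 24 of Itgam, at chr7:128115300-128115500. It held 19.01 and 13.55 tags in WT and 6.06 and 0.00 in SgshKO (-2.68 ± 0.62, adjusted p = 0.0051). In all, 4 microglia peaks in the Itgam body carry the name Itgax, so counts by nearest start site leave them out of Itgam.

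In NeuN+ nuclei 7 of 100 peaks of the list rose and 16 fell. Both shares are below those of the whole table, where 10.2% rose and 19.6% fell. Cr2, a receptor for C3 fragments, fell at its promoter from 30.02 and 31.63 tags to 11.17 and 12.70 (-1.30 ± 0.24, adjusted p = 0.000686). C1qbp, a mitochondrial protein first found as a C1q-binding protein, fell at its promoter from 77.60 and 89.80 to 46.07 and 33.65 (-1.06 ± 0.17, adjusted p = 0.000231). A peak in Cr1l, a regulator that limits C3 activation, fell from 64.01 and 68.33 to 34.20 and 34.28 (-0.93 ± 0.16, adjusted p = 0.000525). The promoter decreases of Cr2 and C1qbp stand beside a table in which 50.1% of promoter peaks fell. The Cr1l peak lies in intron 1, and the peak at the Cr1l promoter did not pass (-0.64, adjusted p = 0.155). Further calls among those with the smallest p were Susd4 at its promoter (-0.58, but -0.05 with quantile normalization), Masp1 (-1.28) and Masp2 (-0.55, not called with any alternative scaling), which fell, and C7 (2.29), Fcnb (1.29), a peak in Dab1 named for C8b (2.08) and one in Fbxo3 named for Cd59b (1.93), which rose.

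In Olig2+ nuclei 2 of 65 peaks of the list rose and 16 fell, or 27.7% called, against 8.17% of all peaks that rose, 11.7% that fell and 19.8% called. Masp1, which encodes proteases of the lectin pathway, held 5 of the decreases; the one with the most tags, in intron 2, fell from 130.19 and 140.11 tags to 46.73 and 54.51 (-1.40 ± 0.14, adjusted p = 1.44e-08). Masp2, the lectin pathway protease that cleaves C4, fell in an exon from 10.89 and 12.78 to 3.69 and 4.65 (-1.31 ± 0.35, adjusted p = 0.00852). Susd4, a regulator of the C3 convertase, fell in intron 2 (-1.10), as did peaks named for Fcnb (-1.16), C7 (-0.97), C1rb (-0.52) and Cr1l (-0.35). The increases lie inside other genes: a peak named for C8b is in an intron of Dab1 (6.74 and 9.72 tags in WT, 49.19 and 49.19 in SgshKO, 2.46 ± 0.25, adjusted p = 2.48e-08) and one named for Cfd is in an exon of Med16 (1.11, but 0.71 with adjusted p = 0.219 when WT replicate 1 was left out). A peak in an intron of Itgam named for Itgax fell from 14.52 and 10.74 tags to 3.07 and 3.32 (-1.69 ± 0.36, adjusted p = 0.00129).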

How the data were processed

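The authors deposited 1 peak table per sort, with each peak's position, nearest gene, distance to its start and the tags in each library. Per the file headers these signal values are tags per peak scaled to 10000000 tags per library, and per the submitters' processing notes Bowtie2, HOMER and mm10 were used, without versions. The deposited peak score was not used in any test. The peak sets are named as merged over WT and SgshKO, and which libraries contributed a peak is not given. A peak near the floor in 1 genotype may have entered through the other, which would favour a call. This concerns the C3 promoter in microglia, the C4b intron peak in Olig2+ nuclei and the low peaks downstream of C1qb in microglia. Handling of duplicates and multiply mapped reads is not given in the sources used here. Dividing out the scaling gave whole reads for 100% of values (within 0.01). Each of the 12 columns of tags carries a title of the series, with 0 unmatched.

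Each table was fitted whole with limma 3.58.1 (R 4.3.3; lmFit, then eBayes with a trend on intensity, two-sided tests, without covariates) on log2(tags + 1), with no filter on low peaks, and p-values were adjusted by Benjamini-Hochberg over the table. Each ± is an SD over 2 libraries, or a standard error after a log2 change, where changes are SgshKO minus WT. Alternatives were pseudocounts of 0.5 and 5, omission of the lowest 25% of peaks, scaling to tags in peaks, by median of ratios or by quantiles, edgeR 4.0.16 (TMM, quasi-likelihood) and DESeq2 1.42.0 on these reads, a block for the replicate number, omission of each library, and peaks within 10000 bp of a start. The fits were tested on simulated data. Peaks named were, per gene and table, the peak nearest the start within 1000 bp, the peak with the smallest p and every called peak; of the 41 other genes, the called peaks with the smallest p, at most 1 per gene and 10 per table. Other named peaks were chosen after their values were seen. The 9 genes and the lists were chosen with earlier results of these data known. The microglial marker list, some of which had peaks in the nuclei sorts, is not reported for them here. The RefSeq-derived promoters are of GRCm38.p6, which UCSC calls mm10.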

Additional observations from a re-analysis of the deposited data

How the results depend on the processing

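Over the 54 peaks and differences named, 687 alternatives were computed: 532 kept the direction and the side of the threshold, 28 passed it, 104 no longer passed it and 23 changed sign. Depth limits the low peaks, since several called C1q peaks rest on fewer than 10 reads in SgshKO libraries. Of the complement peaks of microglia, 9 were called in the main comparison (7.37% of the whole table), 20 with scaling to tags in peaks (15.8%), 15 with quantile normalization (11.4%), 16 with edgeR (15.4%) and 3 with DESeq2 (5.6%; 6 of the 65 had no adjusted p), and 0 to 20 when a library was left out (0 and 1, the C3 promoter, when WT replicate 2 or 1 was omitted; 20 and 13 when SgshKO replicate 1 or 2 was). In those fits 557, 1159, 18850 and 16531 peaks of the whole table were called, and a lone library was assumed to vary like the other group. For NeuN+ nuclei the count of 2 complement peaks, both lower, was 1 with scaling to tags in peaks, which was the higher C1qa peak and neither of the 2, and 1 with quantile normalization, which was 1 of the 2. It was 0 with DESeq2 and 0 without any 1 library, and median-of-ratios scaling and edgeR each called 1 of the 2 and the C1qa peak. For Olig2+ nuclei 3 became 1 without the lowest peaks, 1 with DESeq2 and 1 to 3 without a library (1 without WT replicate 2). The 0 differences between microglia and NeuN+ nuclei became 1 with scaling to tags in the shared peaks and 0 to 1 without a library (1 without either SgshKO microglia library); the pairs with Olig2+ nuclei had no shared complement peak to fit.

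Of the other complement genes, 2 microglia calls became 1 without the lowest peaks, 7 with scaling to tags in peaks, 4 with median of ratios or quantiles, 7 with edgeR, 1 with DESeq2, 1 within 10000 bp and 0 to 12 without a library. The 23 NeuN+ calls became 11 without the lowest peaks, 15 with scaling to tags in peaks, 11 with quantiles, 4 with DESeq2, 13 within 10000 bp and 0 to 8 without a library. The 18 Olig2+ calls became 2 with DESeq2, 9 within 10000 bp and 7 to 18 without a library. The cause of these changes was not tested, other than fewer peaks or libraries entering the fit.

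Labels share replicate numbers between genotypes without stating a pairing, so the numbers were not taken as pairs. Over peaks, the replicate differences of WT and SgshKO correlated at 0.042 in microglia, 0.0036 in NeuN+ and 0.00069 in Olig2+ nuclei. Such a correlation cannot show a shift common to all peaks of a library. In microglia, replicate 1 had the larger share of tags in peaks in WT (55.8% against 48.7%) and in SgshKO (67.4% against 53.7%). With the replicate block, 15 complement peaks and 6 peaks of the other complement genes were called in microglia, where the called share of all peaks was 15.8%, and the C3ar1 peak 6918 bp upstream passed (adjusted p = 0.00511).

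The 23 changes of sign were as follows. Quantile normalization gave -0.18 for the C1qa, -0.25 for the C3ar1, -0.14 for the Itgam and -0.12 for the Itgb2 promoter in microglia, and scaling to tags in peaks gave -0.13 for C3ar1, -0.01 for C5ar1 and -0.19 for Itgam. With 1 library left out, the promoters ranged from -0.20 to 0.01 for C1qb (highest when SgshKO replicate 2 was out), from -0.13 to 0.29 for C3ar1 (-0.13 and -0.10 when WT replicate 2 or SgshKO replicate 1 was), from -0.33 to 0.72 for C5ar1 (lowest when WT replicate 2 was) and from -0.27 to 0.31 for Itgam (-0.27 and -0.04 when SgshKO replicate 1 or WT replicate 1 was). The NeuN+ Itgb2 peak, -0.03, became 0.25 with scaling to tags in peaks, 0.18 with median of ratios, 0.15 with quantiles, 0.19 with edgeR and with DESeq2, and -0.16 to 0.10 with 1 library left out (0.06 when WT replicate 2 and 0.10 when SgshKO replicate 1 was). The difference of Itgb2 between sorts became -0.24 with scaling to tags in the shared peaks and -0.28 with quantiles, and that of C1qb ranged from -1.38 to 0.39 with 1 library left out (0.39 when SgshKO microglia replicate 2 was).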
